A study of Mus musculus with 14 samples.

Results

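The comparison set 2 cathepsin inhibitors against each other in dendritic cells that received no further stimulus. Its members were the 2 arrays of cultures treated with CLIK148 and the 2 arrays of cultures treated with CA074Me, chosen by their titles as the cultures left unstimulated, and they make up 4 of the 14 arrays of the study. All cultures were bone marrow-derived dendritic cells of BALB/c mice, grown for 8 days with recombinant GM-CSF and fed on days 3 and 6. Each inhibitor was given at 5 µM for 1 h, in DMSO at 0.01%, and the solvent control received DMSO alone for the same time. The other arrays used here were the 2 unstimulated solvent arrays and 8 stimulated arrays: solvent or CLIK148 followed by CpG at 25 µg/mL, and solvent or CA074Me followed by TNF-alpha at 500 U/mL, 2 arrays each. The whole set of 7 conditions was run in 2 independent experiments, here called experiment 1 and experiment 2 after the replicate numbers, and each condition has 1 array in each. Neither the time between treatment and harvest nor the number of mice behind a culture is given in the sources used here, and no genetic change to the mice is named.

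Cathepsins B and L are cysteine proteases of the endosomes and lysosomes, where they degrade proteins, trim antigens and process the invariant chain and Toll-like receptors of antigen-presenting cells. CA074Me is used as an inhibitor of cathepsin B and CLIK148 as an inhibitor of cathepsin L. Genes of 2 transcription programmes recur below. NRF2 is a transcription factor that is held low by KEAP1 and, in response to electrophiles and oxidants, induces enzymes of glutathione and thioredoxin metabolism and of heme breakdown. HIF-1 is a factor stabilised when prolyl hydroxylases are inactive, and it induces glycolytic enzymes and genes such as Vegfa.

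RNA was amplified from 100 ng of total RNA and hybridised to Affymetrix mouse arrays, and levels are the authors' log2 RMA values, so a difference of 1 is a 2-fold difference. The 14 arrays had medians between 7.48 and 7.54, and the 2 arrays of an unstimulated condition correlated at 0.982 to 0.985 across genes. Of the 15 dendritic cell markers on the array, 14 lay above the overall median on all 14 arrays, among them Itgax, Flt3, Zbtb46 and Cd74, and Xcr1, a marker of cross-presenting dendritic cells, did on none. All 12 macrophage and all 11 granulocyte markers on the array also lay above it on every array. The granulocyte markers had a median inhibitor difference of -0.23 in experiment 1 and 0.27 in experiment 2. The mast cell, basophil and eosinophil markers, 9 of 14 of which lay above the overall median on all arrays, had -0.02 and 0.35 (0.11 over both), and the part of either list in the results was not tested. In such mixed cultures, fewer cells of a type and less RNA per cell cannot be told apart. The experiment was the largest source of variation: the first principal component of the 6 unstimulated arrays held 82.6% of the variance and separated the experiments, and the second held 7.99% and separated CA074Me from CLIK148 and solvent. The inhibitors were therefore compared within each experiment.

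CA074Me-treated cells carried more mRNA of 6 NRF2 targets than CLIK148-treated cells, among them Gclm, Gclc, Txnrd1 and Hmox1, and less mRNA of the hypoxia-inducible genes Pdk1, Ankrd37 and Vegfa, of the chemokines Cxcl10 and Cxcl11 and of Arg1. Of 12172 genes tested with limma, 42 passed an adjusted p of 0.05 (Benjamini-Hochberg), which is 0.345%. Of these, 33 were higher with CLIK148 (0.271%) and 9 were lower (0.0739%). Fold differences ran from 1.26 to 1.82, and no called gene reached 2-fold. The median 95% confidence interval of a gene reached 0.141 log2 units to either side, and 1224 genes had an unadjusted p under 0.05 (10.1%). All 42 called genes differed in the same direction in both experiments. They were called from these same differences, so this is largely a result of how they were chosen. Of all genes tested, 51.8% had the same direction in both experiments, and the inhibitor differences of the experiments correlated at 0.223. In 20 of the 42 the 2 CLIK148 arrays and the 2 CA074Me arrays did not overlap, beside 19.2% of all genes. In the other 22 the arrays of the inhibitors overlapped across experiments and separated only within them.

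The number of called genes depends on the experiment being a term of the fit and on the spread it uses: it was 0 without that term, 0 when all 14 arrays shared the estimate of spread, and 168 on the 4 compared arrays alone. It also moved widely when an inhibitor array was left out, which leaves 1 array in that group. It was also 0 after cyclic loess and with the mean of each gene's probe sets, where the smallest adjusted p values were 0.0531 and 0.0527. Scaling to 8 reference genes gave 18 calls, 66.7% of them higher with CLIK148, against 78.6% as reported here. The 8 were Actb, Hprt, Tbp, Rpl13a, Sdha, Ywhaz, B2m and Pgk1. Pgk1 encodes a glycolytic enzyme, so this scaling is not independent of the glycolytic genes described below. The part of each reference gene in the change was not tested. The sign of all 42 differences was kept under every alternative that measured the gene, which was largely settled in advance. The experiment term, the prior, the filters and added arrays leave the differences unchanged. With an inhibitor array left out, the differences rest largely on the other experiment, where all 42 had the same sign.

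**Figure D1:**
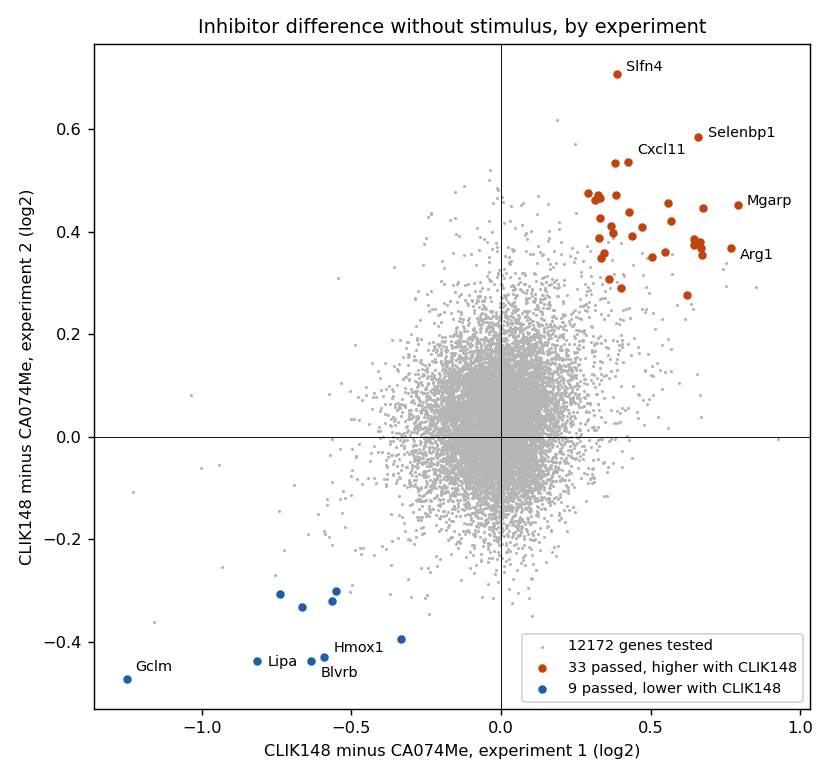
Difference between CLIK148 and CA074Me without stimulus (log2) in experiment 1 (horizontal) and experiment 2 (vertical), with 1 point per gene tested. The 33 genes that passed and were higher with CLIK148 lie at the upper right and the 9 that were lower lie at the lower left, where Gclm reaches -1.25 in experiment 1 and -0.47 in experiment 2.

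Of the 9 genes that were lower with CLIK148 than with CA074Me, 6 belong to the NRF2 target list. Gclm and Gclc encode the modifier and catalytic subunits of glutamate-cysteine ligase, the rate-limiting enzyme of glutathione synthesis. Gclm stood at 11.53 and 11.42 with CLIK148 and at 12.78 and 11.90 with CA074Me in experiments 1 and 2, beside 11.56 and 11.41 with solvent. Both CA074Me arrays lay above all 4 other unstimulated arrays. The difference was -0.86 ± 0.14 (SE, n = 2 per group, adjusted p = 0.0332), the largest of any called gene. It was -1.25 in experiment 1 and -0.47 in experiment 2. Both values lay outside the 95% interval of the fit, -1.17 to -0.55. Here and below, the SE is that of limma, moderated across genes, and it can be smaller than the spread between the 2 experiments. Gclc gave 9.56 and 9.63 with CLIK148, 10.30 and 9.94 with CA074Me and 9.51 and 9.57 with solvent. Its arrays did not overlap either, and the difference was -0.52 ± 0.09 (SE, adjusted p = 0.0427).

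Txnrd1, the cytosolic thioredoxin reductase, read 12.25 and 11.91 with CLIK148, 12.91 and 12.24 with CA074Me, and 12.27 and 11.84 with solvent. The CA074Me array was the highest within each experiment, although the CLIK148 array of experiment 1 was level with the CA074Me array of experiment 2. The difference was -0.50 ± 0.08 (SE, adjusted p = 0.0282). Hmox1, the inducible heme oxygenase that opens heme to biliverdin, was at 10.95 on both CLIK148 arrays, at 11.54 and 11.38 with CA074Me and at 10.91 and 10.999 with solvent. It was the steadiest of the group over experiments (-0.59 and -0.43; -0.51 ± 0.07, SE, adjusted p = 0.0182). Blvrb, a biliverdin reductase, differed by -0.54 ± 0.07 (SE, adjusted p = 0.0182), and its levels were 11.94 and 11.25 with CLIK148 against 12.57 and 11.69 with CA074Me. Abcc1, an efflux pump for glutathione conjugates, differed by -0.43 ± 0.07 (SE, adjusted p = 0.0349).

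**Figure D2:**
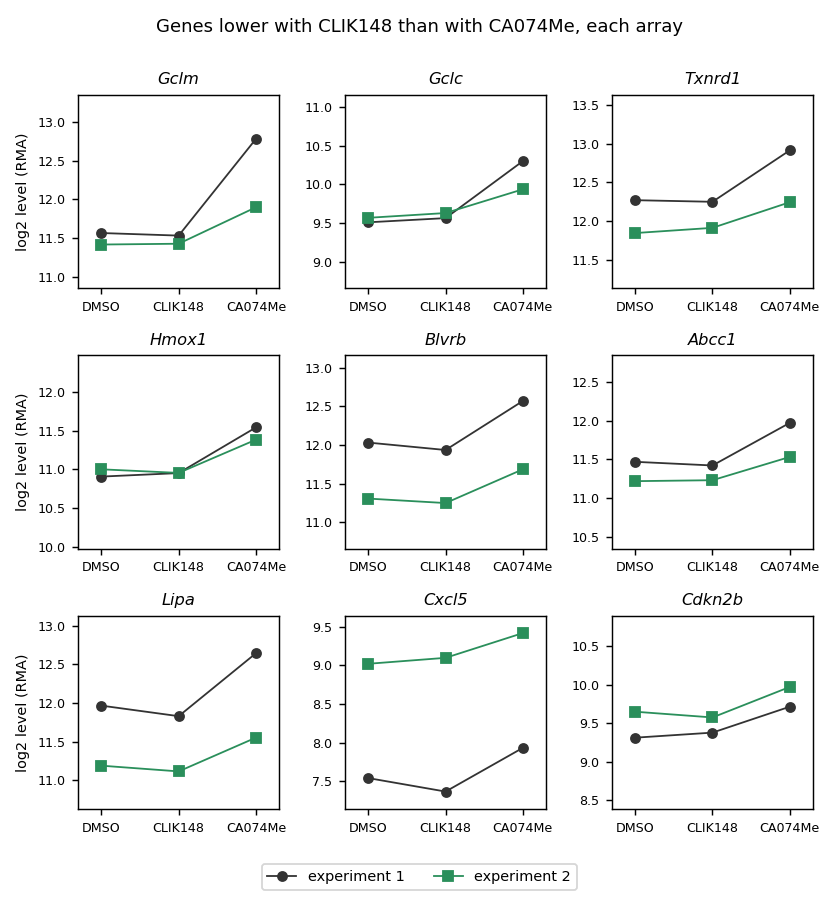
Log2 RMA level on each unstimulated array for the 9 genes lower with CLIK148 than with CA074Me; circles are experiment 1, squares are experiment 2, lines join arrays of an experiment, and every panel spans the same range. In all 9 the CA074Me array is the highest of its experiment, while DMSO and CLIK148 lie close together.

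Across the 31 tested members of the NRF2 target list, 6 were lower with CLIK148 and none higher, and the median difference was -0.22, beside 0.01 over all genes tested. In all, 28 members had a value below 0, and 24 had it in both experiments. Of all 12172 genes tested, 5484 were below 0, and 2466 were so in both experiments. The list median was -0.30 in experiment 1 and -0.09 in experiment 2. The count of 6 was 0 with all 14 arrays in the fit and 0 without the experiment term. It was 11 on the compared arrays alone, beside 44 lower among all 12172 genes tested. It also moved widely when an inhibitor array was left out. The median was -0.11 without the CA074Me array of experiment 1 and -0.14 without the CLIK148 array of experiment 1. Members that did not pass included Srxn1, the sulfiredoxin that repairs oxidised peroxiredoxins (-0.76 ± 0.15, SE, adjusted p = 0.0762), and Slc7a11, the cystine importer (-0.40 ± 0.08, SE, adjusted p = 0.0762). Srxn1 differed by -1.16 in experiment 1 and by -0.36 in experiment 2. Nqo1, a quinone reductase often used as an NRF2 marker, differed by -0.94 in experiment 1 and by -0.05 in experiment 2 (adjusted p = 0.239). The mRNA of NRF2 itself, Nfe2l2, had the other sign, at 0.19 ± 0.06 (SE, adjusted p = 0.296). Sqstm1, the p62 autophagy receptor that binds KEAP1, was at 11.98 and 12.17 with CLIK148 and at 12.35 and 12.38 with CA074Me (adjusted p = 0.106). Those arrays did not overlap.

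NRF2 binds the antioxidant response element, searched here as TGACNNNGC on both strands in the 250 bases before each gene start in RefSeq (GRCm38.p6). Of the 9 genes, 5 had a window and 2 of these held a match, Gclm and Txnrd1; of the tested genes with a window, 14.3% held it. The windows missing were those of Hmox1, Cxcl5, Gclc and Abcc1. Both stretches are shown 5′ to 3′ on the gene's strand, here the plus strand, with the match (here its reverse complement) in capitals, because these are the called NRF2 targets in which it was found. The Gclm stretch lies at chr3:122245383-122245471 and the Txnrd1 stretch at chr10:82859074-82859162, and the matches begin 134 and 92 bases before the gene start.
Gclm: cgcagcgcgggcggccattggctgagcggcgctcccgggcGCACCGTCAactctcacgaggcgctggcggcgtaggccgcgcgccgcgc
Txnrd1: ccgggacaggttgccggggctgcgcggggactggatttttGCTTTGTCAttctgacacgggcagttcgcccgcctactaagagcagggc

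The other 3 genes that were lower with CLIK148 have separate roles. Lipa, the lysosomal acid lipase that frees cholesterol and fatty acids from lipoprotein lipids, had levels of 11.83 and 11.12 with CLIK148, 12.64 and 11.55 with CA074Me and 11.97 and 11.19 with solvent. The difference was -0.63 ± 0.08 (SE, adjusted p = 0.0182), and it held in each experiment (-0.81 and -0.44). Cxcl5, a neutrophil-attracting chemokine, lay near the overall median of 7.52 in experiment 1 (7.37 with CLIK148, 7.93 with CA074Me) and higher in experiment 2 (9.10 and 9.42). Here the experiments lay further apart than the inhibitors, and the difference within experiments was -0.44 ± 0.07 (SE, adjusted p = 0.0332). Cdkn2b, which encodes the cell cycle inhibitor p15, differed by -0.36 ± 0.06 (SE, adjusted p = 0.0393). Cxcl3 and Ppbp, further neutrophil-attracting chemokines, did not pass and differed mostly in experiment 1. The values were -1.23 and -0.11 for Cxcl3 and -1.04 and 0.08 for Ppbp in experiments 1 and 2. Ear3, an eosinophil-associated ribonuclease, differed by -0.37 and -0.31 and did not pass (adjusted p = 0.0762).

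Among the 33 genes that were higher with CLIK148 than with CA074Me, several are known targets of HIF-1. Pdk1, the kinase that shuts pyruvate out of the mitochondrial citric acid cycle, had levels of 10.99 and 10.92 with CLIK148, 10.35 and 10.54 with CA074Me and 10.86 and 10.83 with solvent. Both CA074Me arrays were below all 4 others, with a difference of 0.51 ± 0.07 (SE, n = 2 per group, adjusted p = 0.0182). Ankrd37, a small ankyrin-repeat protein, was at 10.80 and 11.01 against 10.14 and 10.63, again without overlap (0.52 ± 0.08, SE, adjusted p = 0.0182). Vegfa, the endothelial growth factor, read 10.19 and 11.04 with CLIK148, 9.52 and 10.67 with CA074Me, and 9.96 and 11.04 with solvent. Experiment 2 was higher throughout, so the inhibitors overlapped across experiments, and the difference was present in each experiment (0.67 and 0.37; adjusted p = 0.0182).

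Mgarp, a mitochondrial protein, shared with Selenbp1 the largest difference in this direction, 0.62 ± 0.09 (SE, adjusted p = 0.0182), with 9.36 and 9.95 against 8.57 and 9.50. Ddit4, the mTORC1 inhibitor also called REDD1, differed by 0.51 ± 0.07 (SE, adjusted p = 0.0182). Hilpda, a lipid droplet protein that restrains fat breakdown, differed by 0.45 ± 0.08 (SE, adjusted p = 0.0393), with the larger part in experiment 1 (0.62 against 0.28). These 3 genes, like Vegfa, were lower in experiment 1 than in experiment 2 under all 3 unstimulated treatments.

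Of the 26 tested members of the glycolysis and hypoxia list, 3 were higher with CLIK148 (Pdk1, Ankrd37 and Vegfa) and none lower. The remaining 23 did not pass, but all 26 values were above 0, and 25 were above 0 in both experiments. Of all 12172 genes tested, 6688 were above 0, and 3841 were so in both experiments. The list median was 0.32, beside 0.01 over all genes, with 0.37 in experiment 1 and 0.28 in experiment 2. The count of 3 was 0 with all 14 arrays in the fit and 0 without the experiment term. It was 14 on the compared arrays alone, beside 124 higher among all 12172 genes tested. It also moved widely when an inhibitor array was left out, while the list median ran from 0.22 to 0.42 over all alternatives. Values that missed the threshold included Egln3, the HIF prolyl hydroxylase PHD3 (0.54 ± 0.11, SE, adjusted p = 0.0808), and P4ha2, a collagen prolyl hydroxylase (0.46 ± 0.09, SE, adjusted p = 0.0523). Hk2, the inducible hexokinase, gave 0.45 ± 0.09 (SE, adjusted p = 0.0762). The lowest values of the list were those of Aldoa and Pkm, at 0.06 and 0.08.

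**Figure D3:**
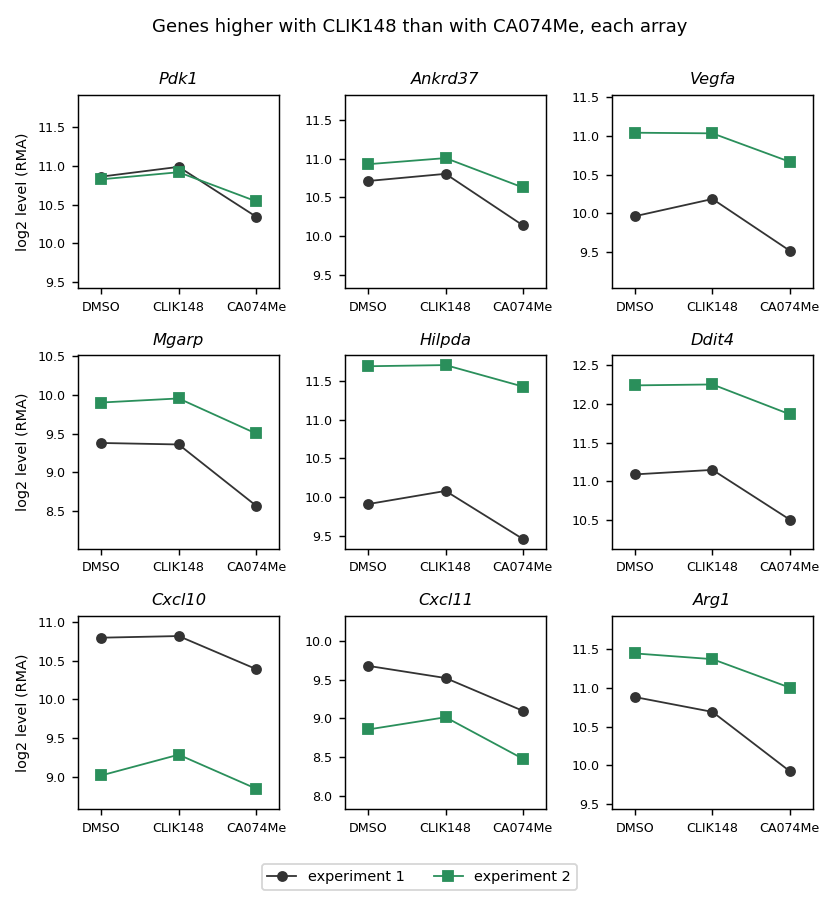
Log2 RMA level on each unstimulated array for 9 genes higher with CLIK148 than with CA074Me; symbols and the common range of the panels are as in the plot of the genes lower with CLIK148. In every panel the CA074Me array is the lowest of its experiment, and in Vegfa, Hilpda, Ddit4, Cxcl10 and others the experiments differ more than the treatments.

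HIF-1 binds the hypoxia response core, searched as ACGTG or GCGTG on both strands, with overlapping matches counted. A match stood in the 250 bases before the start of 20 of the 27 genes with a window (74.1%), beside 60.1% of all tested genes with a window, and 4 of the 5 genes with a window that were lower with CLIK148 (80.0%). The 20 include Vegfa, whose matching window looks like coding sequence after an internal start, so it may be no promoter. The windows missing were those of Cxcl11, Ppp1r3b, Pdgfrb, Klrd1, Arg1 and Ccnd1. The stretches of Pdk1 (chr2:71873106-71873190, plus strand) and Hilpda (chr6:29272475-29272625, plus strand) are shown with the matches in capitals, as called genes with a known place in this response.
Pdk1: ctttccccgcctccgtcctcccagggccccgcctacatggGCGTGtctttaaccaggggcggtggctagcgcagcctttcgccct
Hilpda: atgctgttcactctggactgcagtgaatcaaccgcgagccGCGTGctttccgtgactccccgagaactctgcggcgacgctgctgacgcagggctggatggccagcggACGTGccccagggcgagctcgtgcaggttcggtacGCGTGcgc

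Genes of the interferon response and of immune recognition were the next group. Cxcl10 and Cxcl11 are chemokines that attract T cells through CXCR3 and are induced by interferons. Cxcl10 stood at 10.82 and 9.29 with CLIK148 and at 10.39 and 8.85 with CA074Me, beside 10.80 and 9.02 with solvent. The experiments lay more than 1 log2 unit apart, yet the inhibitor difference was 0.43 in experiment 1 and 0.44 in experiment 2 (0.43 ± 0.07, SE, adjusted p = 0.0349). Cxcl11 had 9.52 and 9.02 against 9.10 and 8.48 (0.48 ± 0.08, SE, adjusted p = 0.0282). Slfn4, an interferon-inducible Schlafen gene of myeloid cells, differed by 0.39 and 0.71 (adjusted p = 0.0182), and Ackr3, a scavenging receptor for CXCL11 and CXCL12, by 0.68 and 0.45 (adjusted p = 0.0182). Of the 27 tested interferon genes only Cxcl10 passed; the list median was 0.15, with 0.04 in experiment 1 and 0.26 in experiment 2. The count of interferon genes passing was 0 with all 14 arrays in the fit and 0 without the experiment term. It was 6 on the compared arrays alone, beside 124 higher among all 12172 genes tested. It also moved widely when an inhibitor array was left out. The median ran from 0.05 to 0.28 over all alternatives. Of the 24 chemokines, Cxcl10 and Cxcl11 were higher, Cxcl5 was lower and the median was 0.02. Ccrl2, a chemerin-binding receptor, Klrd1, the CD94 chain of lectin receptors, and Adgre4, an adhesion receptor of myeloid cells, also passed, with differences of 0.34, 0.39 and 0.38.

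Arg1, the arginase that competes with nitric oxide synthase for arginine, was at 10.69 and 11.37 with CLIK148, at 9.92 and 11.004 with CA074Me and at 10.88 and 11.45 with solvent. Within each experiment CA074Me was the lowest, with a difference of 0.57 ± 0.10 (SE, adjusted p = 0.0396). Slc7a2, the arginine transporter, had the same size of difference and did not pass (0.57 ± 0.12, SE, adjusted p = 0.0762). Of the 16 genes of arginine and itaconate metabolism and alternative activation, 14 had values above 0, beside 54.9% of all genes tested. Of the 16, 1 passed, Arg1, and the list median was 0.15. The count was 0 with all 14 arrays in the fit, and it moved when an inhibitor array was left out. It was 5 on the compared arrays alone, beside 124 higher among all 12172 genes tested.

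Several other called genes act in carbon and lipid metabolism. Selenbp1, a methanethiol oxidase, had 11.38 and 11.79 with CLIK148, 10.73 and 11.21 with CA074Me and 11.61 and 11.83 with solvent, without overlap between the inhibitors (0.62 ± 0.07, SE, adjusted p = 0.0182). It was the called gene with the largest difference present in both experiments (0.66 and 0.59). The glycogen branching enzyme Gbe1 (0.43 ± 0.06, SE) and Ppp1r3b (0.44 ± 0.06, SE), which targets protein phosphatase 1 to glycogen, both passed with adjusted p = 0.0182. Upp1, uridine phosphorylase, differed by 0.49 ± 0.08 (SE, adjusted p = 0.033), Grhpr, glyoxylate reductase, by 0.45, and Mthfd1l, a mitochondrial enzyme of folate metabolism, by 0.43. Abca1, the cholesterol efflux transporter, stood at 11.60 on both CLIK148 arrays and at 11.27 and 11.13 with CA074Me (0.40 ± 0.07, SE, adjusted p = 0.0382). It went the other way from Lipa, which is also in the list of cholesterol efflux genes.

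The remaining called genes higher with CLIK148 were mixed in function. They were Spata13, a guanine nucleotide exchange factor (0.51), Dennd11 (0.42), the cyclin D1 gene Ccnd1 (0.51), the leptin receptor Lepr (0.39), Camkk2 (0.35), the endosomal chloride exchanger Clcn3 (0.33), the circadian gene Noct (0.36), Hacd1 of fatty acid elongation (0.39), Dixdc1 (0.40), Spin4 (0.38) and Prr15 (0.35). Pdgfrb, a receptor of stromal cells, was also higher (0.46 ± 0.08, SE, adjusted p = 0.0382). Of the 10 erythroid and stromal markers on the array, 6 lay below the overall median on all arrays, including Col1a1, Col1a2 and Col3a1. Klf1, Dcn and Pecam1 lay above it on 13, 7 and 5 arrays. Dcn, a stromal marker, was at 7.43 and 8.41 with CLIK148, 7.34 and 8.18 with CA074Me and 7.20 and 8.36 with solvent. Whether stromal cells bear on the Pdgfrb difference was not tested.

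The mRNAs of the proteases that the inhibitors target did not differ detectably. Ctsb was at 13.47 and 13.44 with CLIK148 and at 13.76 and 13.38 with CA074Me (-0.11, 95% interval -0.29 to 0.06, adjusted p = 0.727). Ctsl was at 13.31 and 13.82 against 13.47 and 13.73 (-0.04, 95% interval -0.19 to 0.12, adjusted p = 0.93). Both had opposite signs in the experiments. None of the 15 cathepsin genes passed, and their median was -0.04. Of 32 lysosomal genes, Lipa alone passed; the median was -0.04, with -0.13 in experiment 1 and 0.06 in experiment 2.

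The other lists had no called member or a single one, and are described by their values. All but 1 of the 19 tested genes of cholesterol synthesis had values above 0, beside 54.9% of all genes tested. The median of the list was 0.26 (0.36 in experiment 1, 0.16 in experiment 2), and none of its members passed. On the compared arrays alone 7 passed, beside 124 higher among all 12172 genes tested. The number passing also moved widely when an inhibitor array was left out. The list median was 0.38 without the CA074Me array of experiment 2 and 0.14 without that of experiment 1. Fdft1, squalene synthase, had the largest value, 0.39 ± 0.09 (SE, adjusted p = 0.112). Of 20 NF-kB pathway genes 19 were above 0, with a median of 0.15 and none passing. On the compared arrays alone 2 passed, and the number passing moved when an inhibitor array was left out. The list median was 0.08 without the CA074Me array of experiment 1. Nfkbiz gave 0.36 ± 0.07 (SE, adjusted p = 0.0762). None of the 27 dendritic cell maturation genes passed (median 0.05), none of the 15 MHC class II genes (-0.04), none of the 23 autophagy genes (-0.02) and none of the 15 heat shock genes (0.0047). Of the 23 cytokine and growth factor genes Vegfa alone passed (median 0.08), of the 25 ATF4 targets Ddit4 alone (-0.02), and of the 16 PPAR and fatty acid genes Hilpda alone (0.0072).

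**Figure D4:**
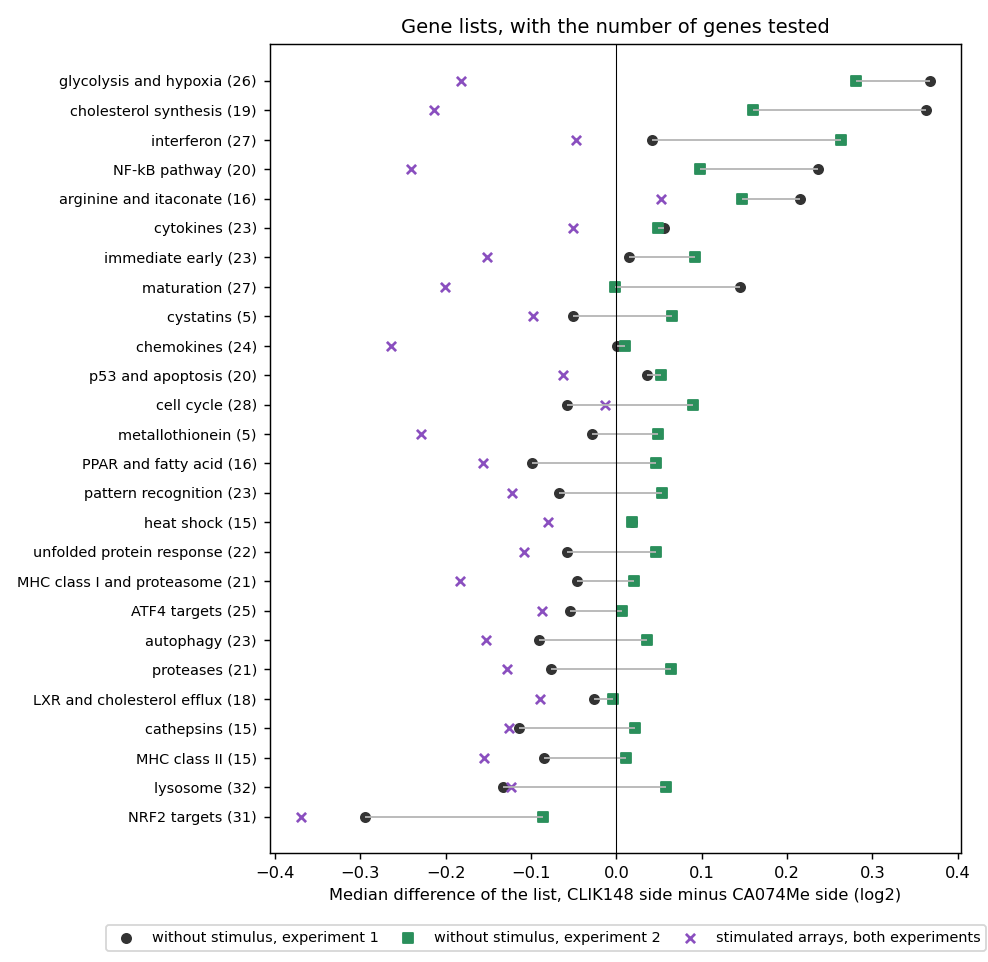
Median log2 difference of each gene list other than the cell type markers, CLIK148 minus CA074Me, without stimulus in experiment 1 (circles) and experiment 2 (squares), and the median inhibitor difference on the stimulated arrays (crosses); the number of genes tested is in parentheses. Among the lists plotted, glycolysis and hypoxia lies furthest to the right without stimulus (0.37 and 0.28) and NRF2 targets furthest to the left (-0.30 and -0.09).

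Set beside solvent, the levels of the 42 called genes stayed near DMSO after CLIK148 and moved away from it after CA074Me. DMSO lay nearer to CLIK148 in all 33 genes higher with CLIK148, beside 72.0% of all tested genes above 0. It did so in all 9 genes lower, beside 43.3% of all tested genes below 0. The comparisons with solvent share arrays with the inhibitor comparison, so their values are given side by side only. Between CLIK148 and DMSO, 0 genes passed in limma (0%), with 271 at an unadjusted p under 0.05; 22 passed on the 4 arrays of these groups alone. Between CA074Me and DMSO, 36 genes passed (0.296%), 12 higher and 24 lower with CA074Me, and 0 did without the experiment as a term. Among the 42 genes, the CLIK148 minus DMSO values ran from -0.14 to 0.16. The CA074Me minus DMSO values ran from -0.76 to -0.23 for the 33 genes higher with CLIK148, and from 0.36 to 0.85 for the 9 genes lower.

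Of the 42, 25 passed between CA074Me and DMSO as well, 17 of the 33 and 8 of the 9. For Gclm, CA074Me minus DMSO was 0.85 and CLIK148 minus DMSO was -0.01 (95% interval -0.32 to 0.30). For Hmox1 the same values were 0.51 and -0.00052 (-0.15 to 0.15), and for Lipa 0.52 and -0.11 (-0.29 to 0.08). On the other side, Selenbp1 had -0.76 with CA074Me and -0.14 with CLIK148 (-0.29 to 0.02), and Pdk1 had -0.40 and 0.11 (-0.05 to 0.27). A missed threshold does not show that CLIK148 had no effect. The interval left out 0 for Hacd1 (0.02 to 0.30) and Spin4 (0.01 to 0.30), both at 0.999 after adjustment. By list, the NRF2 targets had a median of 0.24 for CA074Me minus DMSO and -0.0027 for CLIK148 minus DMSO. The glycolysis and hypoxia list had -0.34 and -0.00075, and cholesterol synthesis had -0.13 and 0.10.

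The inhibitor difference was also read on the 8 stimulated arrays, none of which enters the comparison above. It is the effect of CLIK148 under CpG minus the effect of CA074Me under TNF-alpha, each against solvent with the same stimulus, so the stimulus differs along with the inhibitor and it is no repeat. No gene passed there in limma (0%), 297 had an unadjusted p under 0.05, and the median 95% interval was 0.303 log2 units to either side. All 9 genes lower with CLIK148 without stimulus were below 0 on the stimulated arrays in both experiments; among all tested genes below 0 without stimulus, 41.0% were. Their values ran from -0.999 (Gclm) to -0.57 (Gclc), with a median of -0.75. For Hmox1 the stimulated difference was -0.90 ± 0.16 (SE), made of 0.0040 for CLIK148 under CpG and 0.90 for CA074Me under TNF-alpha. For Cxcl5 it was -0.85 ± 0.12 (SE), made of 0.19 and 1.05. The NRF2 target list had a median of -0.37, and 29 of 31 members were below 0, beside 7354 of all 12172 genes tested.

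The 33 genes higher with CLIK148 without stimulus did not share a direction on the stimulated arrays. Of these, 18 were above 0, beside 40.7% of all tested genes above 0 without stimulus. Both experiments were above 0 for 8 genes (21.8% of all such genes) and below 0 for 11, and the median was 0.02. Pdk1 had 0.05 ± 0.18 (SE), Vegfa 0.02 ± 0.23 (SE) and Ankrd37 -0.18 ± 0.13 (SE). Noct, at 0.36 without stimulus, had -0.31 ± 0.10 (SE) with it. Cxcl10 and Cxcl11 could not be placed, at 0.11 ± 0.96 and 0.18 ± 1.41 (SE). The difference between the unstimulated and the stimulated value, tested in 1 fit over all 14 arrays, passed for no gene (304 at an unadjusted p under 0.05), so none of these contrasts between settings is established for a single gene.

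**Figure D5:**
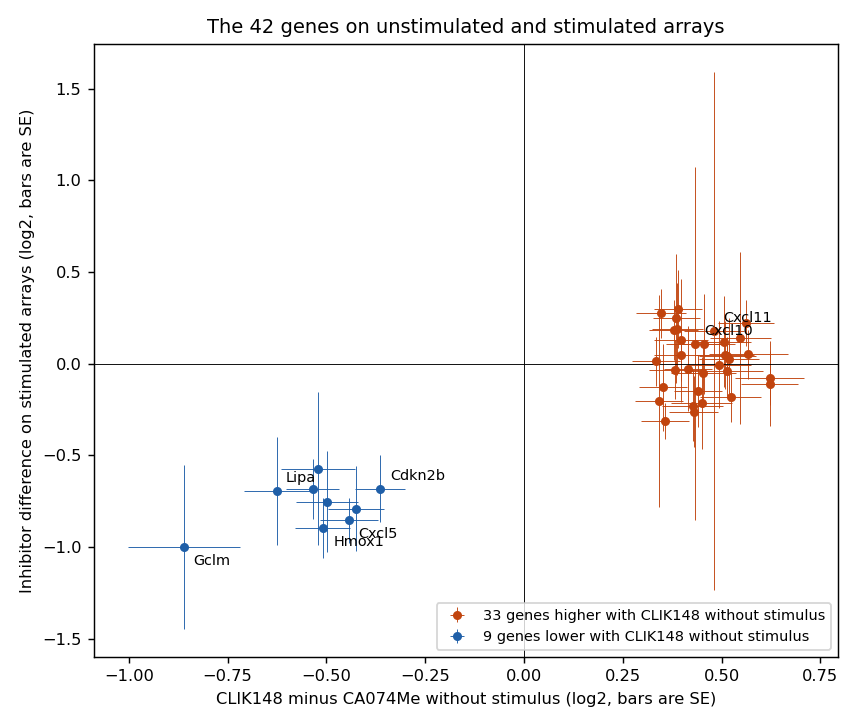
For the 42 called genes, the difference between the inhibitors without stimulus (horizontal) against the inhibitor difference on the stimulated arrays (vertical), both in log2 units with SE bars. The 9 genes at the left all lie between -0.999 and -0.57 on the vertical axis, and the 33 at the right scatter around 0, from -0.31 to 0.30.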

How the data were processed

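Levels are the deposited log2 values of 14 arrays, which the authors computed with RMA in R 3.0.1, per the submitters' processing notes; no other setting is given in those notes, and the number of arrays limits the precision. Of 45101 probe sets, 34945 name 1 gene, 932 several and 9160 none in the platform annotation, whose symbols were checked against RefSeq (34741 matched); 64 controls were left out. The probe set with the highest mean stood for each of 18193 genes, and a gene was tested if 2 or more of the 14 arrays exceeded the median of all values (7.52), which kept 12172.

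The 6 unstimulated arrays were fitted with limma 3.58.1 (R 4.3.3), with condition and experiment (replicate number) as terms, leaving 2 residual degrees of freedom before moderation (prior 9.63). P values were adjusted by Benjamini-Hochberg over all tested genes. Arrays with the same number deviated together, with correlations of 0.455 to 0.935 over 21 pairs of conditions, and the series design names independent experiments, so the number pairs the arrays. The 8 stimulated arrays had their own fit (3 residual degrees of freedom). With 2 experiments, p values, SEs and intervals rest on the spread left in these samples after condition and experiment are fitted, moderated across genes. The shift in level between the experiments is not part of that spread. The inhibitors gave 1 pair at matched dose and time.

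Named genes were called genes of equal sign in both experiments, ranked by the smaller of the 2 differences, 12 per direction (filled with uncalled genes where fewer passed), up to 3 called members or else 2 leading members of each of 32 gene lists, and Ctsb and Ctsl. Other genes named were chosen after their values were seen. The comparison and the lists were chosen with earlier results of these data known. Scripts were tested on simulated data. Alternatives covered the samples in the fit, the experiment term, filters, probe set summaries, scaling, the prior and each array left out.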

Additional observations from a re-analysis of the deposited data

Results flagged for a closer look

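10 gene lists had a median of the same sign in both experiments without stimulus, and of the opposite sign in both on the stimulated arrays. None of these differences between settings was tested, the stimulus differs between the inhibitors, and over all genes the medians were 0.01 without stimulus and -0.03 with it. On the stimulated arrays 7354 of all 12172 genes tested and most list medians were below 0. Most lists with a median above 0 without stimulus had one below 0 there. The exceptions were arginine and itaconate metabolism (0.05), the mast cell, basophil and eosinophil markers (0.06) and the erythroid and stromal markers (0.08). Whether the lean of all genes accounts for the turned signs was not tested. The glycolysis and hypoxia list had 0.37 and 0.28 without stimulus and a median of -0.18 with it (-0.28 in experiment 1 and -0.06 in experiment 2). Cholesterol synthesis genes had 0.36 and 0.16 without stimulus and -0.21 with it, where all 19 members were below 0. NF-kB pathway genes had 0.24 and 0.10 without stimulus and -0.24 with it, where all 20 were below 0.

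The interferon list was 0.04 and 0.26 without stimulus and -0.0476 with it, and the cytokine list 0.06 and 0.05 against -0.0507. The chemokine list was 0.00059 and 0.0099 without stimulus and -0.26 with it. Immediate early genes were 0.01 and 0.09 against -0.15, heat shock genes 0.02 and 0.02 against -0.0804, and p53 and apoptosis genes 0.04 and 0.05 against -0.0626. The lymphocyte and plasmacytoid cell markers were 0.03 and 0.02 against -0.0819. In experiment 2 without stimulus, the chemokine, heat shock and lymphocyte lists lay below the median of all genes tested, 0.0349.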

How the results depend on the processing

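Between CLIK148 and CA074Me the 42 called genes became 0 with all 14 arrays in the fit, 0 without the replicate block, 0 without it on all 14 arrays, 168 on the compared arrays alone, 17 with a stricter filter, 0 with the mean of the probe sets, 0 with all probe sets tested singly, 0 after cyclic loess and 18 with reference-gene scaling. With each array left out in turn the count ran from 5 to 721. At an unadjusted p under 0.05, limma gave 287 genes with all 14 arrays, 116 without the block, 58 without it on all 14, 1099 with probe set means, 2209 with all probe sets and 1321 after cyclic loess. No filter gave 54, a trended prior 44 and a robust prior 42. The 17 and 18 calls were all among the 42.

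Between CA074Me and DMSO the 36 calls became 0 (335 unadjusted), 170, 0 (116) and 0 (66) in the first 4 settings, in the order all 14 arrays, compared arrays alone, no replicate block, and no block on all 14. They became 68 with no filter, 14 with a stricter filter, 0 (1241) with probe set means, 223 with all probe sets, 6 after cyclic loess and 18 with reference-gene scaling, and ran from 4 to 546 with an array left out. Between CLIK148 and DMSO the count rose from 0 to 22 on the compared arrays alone and ran from 0 to 22 with an array left out. The stimulated difference had 0 calls in every setting run. The causes were not tested.

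Among named genes, signs turned only when an array was left out, and only for 4 genes that had not passed. Their values ran from -0.0898 to 0.0191 for Cst3, from -0.26 to 0.0341 for Ctsb, from -0.14 to 0.0696 for Ctsl and from -0.00685 to 0.0858 for Mt1. The arrays concerned were CLIK148 of experiment 1 (Cst3, Ctsb, Ctsl), CLIK148 of experiment 2 (Mt1) and CA074Me of experiment 1 (Ctsb, Ctsl).

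A single array per condition and experiment, with few residual degrees of freedom, limits what could be called; differences under about 0.141 log2 units lay within the usual interval of a gene. Probe sets without a single gene (3034 tested, chosen after seeing the data) gave 0 calls.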
